A study of Mus musculus with 8 samples.

Results

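Skeletal muscle genes were followed in ribosome-bound RNA recovered from mouse skin at 3 and 7 days after wounding and from uninjured skin. The set held 48 of the 53700 gene identifiers in the count table, taken by gene symbol for the sarcomere, calcium handling and metabolism of muscle. All 48 were found once in the table, and 47 of them passed the filter on low counts and were tested among 18656 genes. The exception was Myh7, the myosin heavy chain of slow fibres. Of the 48 genes, 13 were placed in a list of fast fibre genes and 8 in a list of slow fibre genes. The others were placed in neither list.

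The 8 libraries came from skin of AdipoqCreER;R26-NuTRAP mice, and all groups were given Tamoxifen. AdipoqCreER makes a tamoxifen-dependent Cre under control of the adiponectin gene, which limits the tag to cells in which that gene is or was used. NuTRAP is a reporter that puts GFP on ribosomes once Cre has acted. Mice were 7 to 9 weeks old, and wounded mice had 4 full-thickness wounds made with a 5 mm punch. RNA bound to tagged polysomes was recovered with an antibody against GFP, and 20 ng entered each library. The groups were day 3 (n = 2), day 7 (n = 3) and uninjured (n = 3), where the abbreviation in the sample titles was read as days after wounding. The number of animals behind a library, and whether animals were pooled, is not given in the labels. The p-values below therefore measure only the spread between these libraries, which may be technical.

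The cell type label of every library was adipocyte. The 10 adipocyte markers summed to 104830 to 131700 CPM in uninjured libraries, 107710 and 134730 CPM at day 3, and 63152 to 140630 CPM at day 7. CPM here are read counts scaled to a common library size with TMM factors. The labelled cell type thus had its defining markers in all 8 libraries, beside the muscle genes described here. Libraries held 5308959 to 17751689 counts. Number prefixes in the column names were shared within each group and differed between groups, so whatever they mark cannot be told apart from the group. Day 3 replicate 1 stood apart in markers of luminal epithelium, a glandular cell type. Their 5 genes summed to 1397 CPM in it and to 20.1 CPM in day 3 replicate 2, against 518 to 1150 CPM at day 7 and 11.1 to 26.0 CPM in uninjured libraries.

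Striated muscle contracts through the sarcomere, in which myosin thick filaments pull on actin thin filaments between Z-discs. Calcium released from the sarcoplasmic reticulum binds the troponin complex on the thin filament and so permits the pull. Fast and slow fibres build the same machine from different genes for troponin, myosin, the calcium pump and several other proteins. In mouse skin a thin sheet of striated muscle made mostly of fast fibres, the panniculus carnosus, lies beneath the fat.

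Most of these muscle genes fell by day 7, while the few genes of the slow list were split between higher, lower and not passing. At day 7 against uninjured skin, 34 of the 47 tested genes fell, 2 rose and 11 did not pass at an edgeR adjusted p of 0.05. Over all genes tested, 1.77% fell, 5.9% rose and 7.67% passed in either direction. The median log2 fold change was -2.04 over the 47 muscle genes and 0.04 over all 18656 genes. Every day 7 library was below every uninjured library for 35 of the 47 genes and above every one for 3, where these shares over all genes were 13.5% and 16.7%. In RNA recovered through a ribosome tag, fewer muscle fibres, less RNA per fibre and a difference in what was recovered cannot be told apart. None of these was tested.

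The 48 genes together took 2.003%, 1.14% and 0.829% of all counts in uninjured replicates 1, 2 and 3. They took 0.538% and 0.910% in day 3 replicates 1 and 2, and 0.275%, 0.445% and 0.294% in day 7 replicates 1, 2 and 3. Exact binomial 95% intervals were narrow at these depths, for example 0.271% to 0.279% in day 7 replicate 1, and cover counting error only. The groups did not overlap between day 7 and uninjured, and day 3 replicate 2 lay inside the uninjured range. Of the 40 genes at 20 CPM or more in uninjured skin, 34 were highest in replicate 1 among the uninjured libraries. All 40 were lower in day 3 replicate 1 than in replicate 2, and 29 were lowest in day 7 replicate 1 among the day 7 libraries. Relative to the uninjured mean, the median log2 difference over these 40 genes was 0.66, -0.19 and -0.45 in the uninjured libraries, -1.34 and -0.51 at day 3, and -2.76, -1.94 and -2.35 at day 7. Their choice by uninjured level leaves out the slow troponins, Myh7, Myl2 and Myl3, so these medians lean towards a fall.

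**Figure D1:**
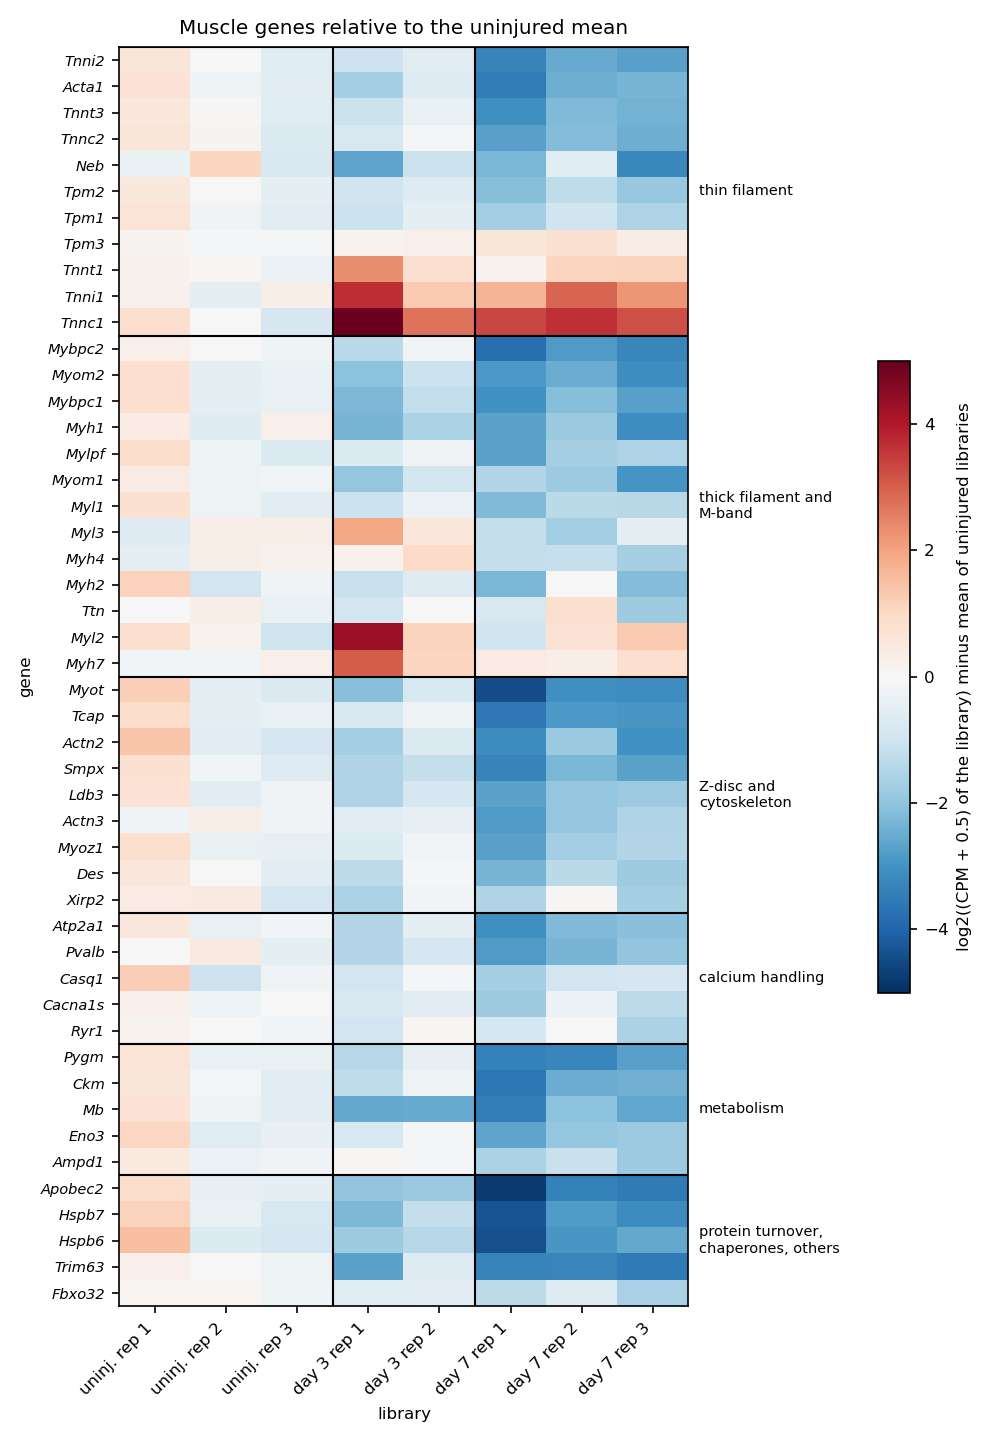
Heat map of the 48 muscle genes (rows, grouped by role) in the 8 libraries (columns), as log2((CPM + 0.5) of the library) minus the mean of the uninjured libraries, with blue below and red above that mean. Blue fills most of the 3 day 7 columns, while the slow troponin genes Tnni1 and Tnnc1 are red in every wounded library.

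The promoters of 4 of these genes are shown because they mark the extremes of the pattern: the fast and slow genes for troponin C, which moved in opposite directions, Apobec2, which had the largest fall, and Myh4, which did not follow the other fast genes at day 3. Each line gives the 250 bases before the transcription start, 5′ to 3′ on the gene's own strand, from RefSeq on build GRCm38.p6. Capitals mark matches to 4 motifs known from muscle promoters and searched on both strands: the E-box CAGCTG, the CATTCC motif, the MEF2 site and the CArG box.
Tnnc2: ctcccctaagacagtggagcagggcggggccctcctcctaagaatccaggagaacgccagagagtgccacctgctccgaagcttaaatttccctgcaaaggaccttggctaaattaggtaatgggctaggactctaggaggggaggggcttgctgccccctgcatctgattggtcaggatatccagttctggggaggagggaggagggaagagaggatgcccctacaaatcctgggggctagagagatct
Tnnc1: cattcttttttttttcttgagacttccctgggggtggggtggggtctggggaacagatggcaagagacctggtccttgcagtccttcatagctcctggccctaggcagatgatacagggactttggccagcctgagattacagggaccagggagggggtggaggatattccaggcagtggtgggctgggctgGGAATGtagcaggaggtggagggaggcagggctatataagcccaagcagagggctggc
Myh4: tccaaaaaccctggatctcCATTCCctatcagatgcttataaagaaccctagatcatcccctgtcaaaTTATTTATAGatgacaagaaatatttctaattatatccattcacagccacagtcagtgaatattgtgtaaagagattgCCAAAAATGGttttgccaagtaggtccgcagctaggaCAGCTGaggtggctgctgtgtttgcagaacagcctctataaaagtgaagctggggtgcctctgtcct
Apobec2: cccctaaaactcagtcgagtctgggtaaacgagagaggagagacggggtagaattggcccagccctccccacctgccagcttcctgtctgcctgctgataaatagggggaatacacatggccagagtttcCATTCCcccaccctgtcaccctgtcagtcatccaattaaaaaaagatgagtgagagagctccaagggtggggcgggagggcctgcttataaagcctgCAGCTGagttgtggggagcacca
These windows lie at chr2:164779735-164779984 on the minus strand for Tnnc2, chr14:31208062-31208311 on the plus strand for Tnnc1, chr11:67237562-67237811 on the plus strand for Myh4 and chr17:48432729-48432978 on the minus strand for Apobec2.

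The Myh4 promoter held 1 match to each of the 4 motifs, none of which overlapped: CATTCC, TTATTTATAG for MEF2, CCAAAAATGG for CArG, and CAGCTG nearest the start. Apobec2 held CATTCC and CAGCTG, Tnnc1 held GGAATG, which is CATTCC on the other strand, and Tnnc2 held none of these letters. RefSeq promoters of 300 bases, 250 before and 50 after the start, were matched for 38 of the 48 genes. CAGCTG was present in 18 of the 38 (47.4%), against 16.1% of 27025 promoters of the same length. CATTCC was present in 15 (39.5%, against 14.6%), MEF2 in 5 (13.2%, against 3.26%) and CArG in 5 (13.2%, against 1.57%). A match is a description of letters and not a site shown to be used.

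The thin filament list, which holds actin, tropomyosin, nebulin and the troponins, had 6 genes that fell, 2 that rose and 3 that did not pass among 11 tested. The median log2 fold change at day 7 was -1.78. Over all genes tested, 1.77% fell and 5.9% rose at day 7. Tnnt3, the fast gene for troponin T, which anchors the complex to tropomyosin, was at 2409.6, 1724 and 1102 CPM in uninjured libraries, 798 and 1266 CPM at day 3, and 199, 356 and 325 CPM at day 7. All day 7 libraries lay below all others, and day 3 overlapped uninjured. Tnnt3 fell 5.95-fold at day 7 (log2 -2.57 ± 0.37, SE, edgeR adjusted p = 0.00511).

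Tnni2, the fast gene for the inhibitory subunit troponin I, was at 1394, 898 and 591 CPM in uninjured libraries, 438 and 618 CPM at day 3, and 88.9, 157 and 137 CPM at day 7. It fell 7.53-fold at day 7 (log2 -2.91 ± 0.37, edgeR adjusted p = 0.00281). Tnnc2, the fast gene for the calcium sensor troponin C, was at 154, 111 and 60.7 CPM in uninjured libraries, 58.2 and 96.8 CPM at day 3, and 15.2, 21.9 and 18.2 CPM at day 7. Its fall was 5.88-fold (log2 -2.56 ± 0.35, edgeR adjusted p = 0.0041). For these fast troponins the day 7 libraries sat together below the other libraries.

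Slow troponin genes went the other way or did not pass. Tnnc1, the troponin C of slow fibres and heart, was at 1.10, 0.367 and 0 CPM in uninjured libraries, 25.7 and 5.35 CPM at day 3, and 8.49, 10.7 and 7.67 CPM at day 7. Uninjured values rested on 9, 6 and 0 counts, and every wounded library was above them. Tnnc1 rose 17.9-fold at day 7 in the edgeR fit (log2 4.16 ± 0.80, adjusted p = 0.0142), a fold that depends on so few uninjured counts. Tnni1, the slow troponin I gene, was at 1.71, 0.857 and 1.88 CPM in uninjured libraries, 24.1 and 4.28 CPM at day 3, and 5.77, 13.8 and 8.50 CPM at day 7. It rose 6.50-fold at day 7 (log2 2.70 ± 0.65, edgeR adjusted p = 0.0321), and again no wounded library overlapped the uninjured ones. Tnnt1, the slow troponin T gene, was at 10.9, 9.92 and 7.37 CPM in uninjured libraries, 48.1 and 16.4 CPM at day 3, and 10.6, 20.2 and 20.6 CPM at day 7. Day 7 overlapped uninjured, and Tnnt1 did not pass (log2 0.86 ± 0.40, edgeR adjusted p = 0.198). Day 3 replicate 1 was the highest library for all 3 slow troponin genes.

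These calls for slow troponins were sensitive to single libraries. The adjusted p of Tnni1 went up to 0.119 when 1 library was left out. Leaving out uninjured replicate 1, 2 or 3, day 7 replicate 1 or day 7 replicate 2 each ended its call. The call of Tnnc1 was lost without uninjured replicate 2 or day 7 replicate 2, with an adjusted p of at most 0.0546. The count table places Tnnc1 (ENSMUSG00000091898.9) on chromosome 14 from 30930269 to 30933686, Tnni1 (ENSMUSG00000026418.17) on chromosome 1 from 135707172 to 135738727 and Tnnt1 (ENSMUSG00000064179.14) on chromosome 7 from 4507569 to 4519381. The fast genes Tnnt3 (ENSMUSG00000061723.19) and Tnni2 (ENSMUSG00000031097.16) lie near each other on chromosome 7, from 142052573 to 142069746 and from 141995545 to 141998147, and Tnnc2 (ENSMUSG00000017300.10) spans chromosome 2 from 164619081 to 164621887. These spans are those of the deposited table, on a build that the sources used here do not settle. Of the 48 genes, 1 had the same start in a GRCm38 annotation, so they are not to be mixed with the promoter windows above.

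**Figure D2:**
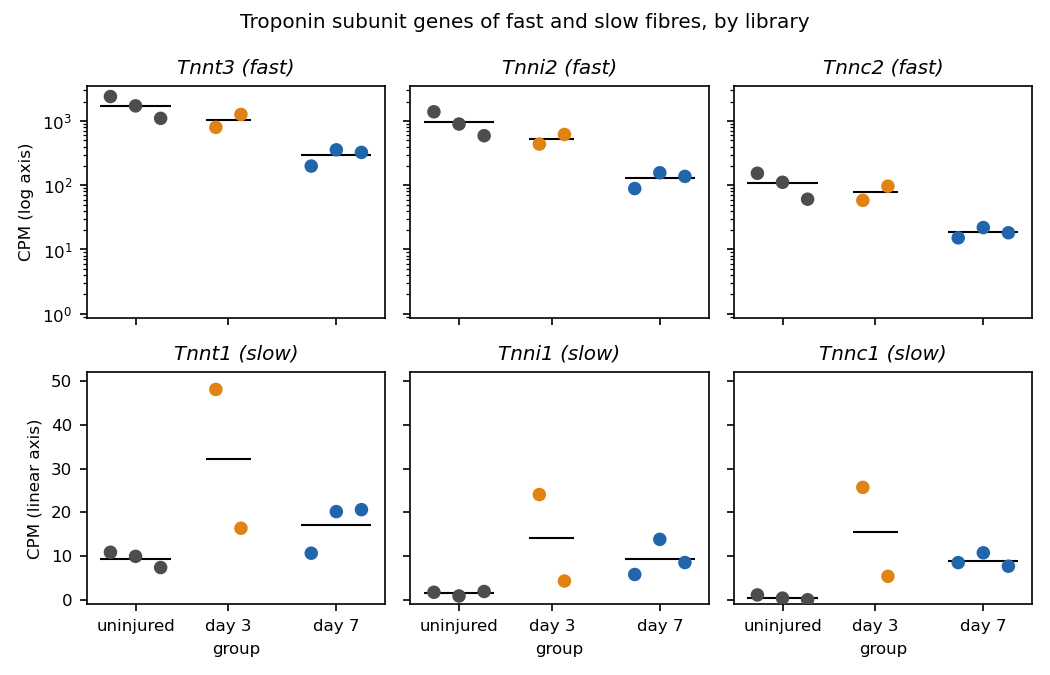
CPM of the fast troponin genes (top, log axis) and slow troponin genes (bottom, linear axis) in each library by group, with points for libraries and lines for group means. Day 7 points are lowest in each fast panel, at 15.2 to 21.9 CPM for Tnnc2, and day 3 replicate 1 is highest in each slow panel, at 48.1 CPM for Tnnt1.

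Acta1, skeletal muscle actin, had the highest level per length of all 48 genes in uninjured skin, at 1475 ± 711 CPM per kilobase of exon (SD, n = 3), ahead of Tnnt3 at 1102 ± 413. These first-placed levels do not differ beyond their spread. Acta1 was at 3507, 1830.2 and 1458 CPM in uninjured libraries, 646 and 1357 CPM at day 3, and 187, 385 and 416 CPM at day 7. Day 3 and day 7 libraries were all below uninjured ones, and Acta1 fell 6.88-fold at day 7 (log2 -2.78 ± 0.46, edgeR adjusted p = 0.00848). The tropomyosins Tpm1 and Tpm2, which lie along actin and are also made outside skeletal muscle, had log2 fold changes of -1.46 ± 0.36 and -1.78 ± 0.34 (edgeR adjusted p = 0.0341 and 0.0132). Both calls were lost without uninjured replicate 1 or day 7 replicate 1, and that of Tpm1 also without uninjured replicate 2 or day 7 replicate 2 (highest adjusted p = 0.136). Tpm3, the tropomyosin of slow fibres, which many other cells make, was at 110.4, 97.2 and 97.3 CPM in uninjured libraries, 115 and 122 CPM at day 3, and 154, 171 and 132 CPM at day 7. Its libraries did not overlap between day 7 and uninjured, yet it did not pass (log2 0.58 ± 0.20, edgeR adjusted p = 0.0927). Neb, the long filament protein nebulin, ranged from 83.0 to 300.2 CPM in uninjured and from 14.7 to 93.2 CPM in day 7 libraries and did not pass (adjusted p = 0.113).

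Among 12 tested genes of the thick filament and the M-band that cross-links it, 8 fell and 4 did not pass at day 7. Their median log2 fold change was -1.87, and 1.77% of all genes fell. Mybpc2, the fast gene for myosin-binding protein C, was at 139, 116 and 101 CPM in uninjured libraries, 45.4 and 109 CPM at day 3, and 8.15, 16.3 and 11.9 CPM at day 7. Day 7 stood below the other groups without overlap, and Mybpc2 fell 9.79-fold (log2 -3.29 ± 0.37, edgeR adjusted p = 0.00145). Mybpc1, its slow counterpart, was at 207, 85.7 and 89.4 CPM in uninjured libraries, 24.1 and 49.0 CPM at day 3, and 13.9, 26.0 and 17.5 CPM at day 7. It was the one gene of the slow list that fell, 6.63-fold (log2 -2.73 ± 0.42, edgeR adjusted p = 0.00661). Its uninjured mean was 127 CPM, near the 119 CPM of Mybpc2. Of the other genes of the slow list, Tpm3 was at 102 CPM, Tnnt1 at 9.38 CPM and the rest lower. Mybpc1 may thus not mark slow fibres alone. Myom2, a myomesin of the M-band, was at 63.3, 24.6 and 27.4 CPM in uninjured libraries, 8.02 and 16.5 CPM at day 3, and 4.42, 5.88 and 3.59 CPM at day 7. Its groups followed each other downwards without overlap, and it fell 8.23-fold (log2 -3.04 ± 0.44, adjusted p = 0.0048). Its relative Myom1 fell by 2.03 on the log2 scale, a call lost without uninjured replicate 1 or day 7 replicate 2 (highest adjusted p = 0.0748).

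The fast myosin heavy chains, motors that set contraction speed, did not move as one. Myh1 was at 261, 125 and 238 CPM in uninjured libraries, 39.7 and 65.5 CPM at day 3, and 30.7, 55.1 and 22.6 CPM at day 7. Both wounded groups lay below uninjured, and Myh1 fell 5.74-fold at day 7 (log2 -2.52 ± 0.39, edgeR adjusted p = 0.00682). Myh4, the heavy chain of the fastest fibres, was at 97.9, 172 and 159.9 CPM in uninjured libraries, 162 and 274 CPM at day 3, and 60.9, 61.7 and 43.6 CPM at day 7. At day 3 it had the highest mean of the 3 groups, with overlap (log2 0.61 ± 0.32, edgeR adjusted p = 0.443), and at day 7 it fell 2.58-fold (adjusted p = 0.021). Leaving out uninjured replicate 2, uninjured replicate 3, day 7 replicate 1 or day 7 replicate 2 each ended that call (highest adjusted p = 0.0741). Myh2 was at 74.0, 17.0 and 29.5 CPM in uninjured libraries, 15.0 and 21.1 CPM at day 3, and 6.45, 34.3 and 7.07 CPM at day 7, and did not pass (adjusted p = 0.221).

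The make-up of fast myosin was taken per exon length, with no test. On this scale Myh4 made up 24.0%, 56.4% and 38.9% of the summed Myh1, Myh2 and Myh4 level in uninjured libraries, 76.3% and 77.5% at day 3, and 63.8%, 43.2% and 61.4% at day 7. Myh1 made up 60.7%, 38.9% and 55.0% in uninjured libraries, 17.7% and 17.5% at day 3, and 30.5%, 36.6% and 30.2% at day 7. Both day 3 libraries were thus above every other library in the Myh4 share and below every other one in the Myh1 share. The sources used here do not say how reads matching several of these near-identical genes were counted, so their split is uncertain. Myh7, the slow heavy chain, had 0, 0 and 1 counts in uninjured libraries, 19 and 6 at day 3, and 2, 2 and 4 at day 7. These correspond to 0, 0 and 0.144 CPM, 3.91 and 0.641 CPM, and 0.226, 0.187 and 0.479 CPM, of which the day 3 values are the highest.

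Myosin light chains bind the neck of the heavy chain. Mylpf, the fast regulatory light chain, was at 991, 457 and 331 CPM in uninjured libraries, 335 and 465 CPM at day 3, and 83.2, 166 and 182 CPM at day 7. It fell 4.12-fold at day 7 (log2 -2.04 ± 0.43, edgeR adjusted p = 0.0202). Myl1, the fast essential light chain, was at 761, 381 and 314 CPM in uninjured libraries, 212 and 365 CPM at day 3, and 95.8, 178 and 170.0 CPM at day 7, a 3.28-fold fall (adjusted p = 0.0252). In both genes uninjured replicate 1 was far above the other uninjured libraries, and the call was lost without it or without day 7 replicate 1 or 2. The highest adjusted p was 0.0746 for Mylpf and 0.0996 for Myl1.

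Slow light chains were scarce. Myl2, the slow regulatory light chain, was at 1.22, 0.612 and 0 CPM in uninjured libraries, 18.5 and 1.60 CPM at day 3, and 0, 1.12 and 1.92 CPM at day 7. Day 3 replicate 1 held 90 of its counts, and day 7 did not pass (edgeR adjusted p = 0.746). Myl3, the slow essential light chain, was at 1.71, 3.80 and 3.75 CPM in uninjured libraries, 12.7 and 4.38 CPM at day 3, and 1.02, 0.560 and 2.04 CPM at day 7 (adjusted p = 0.185). Its day 7 and uninjured libraries overlapped. Ttn, the giant spring protein titin, was at 125, 155 and 95.6 CPM in uninjured libraries, 63.3 and 119.8 CPM at day 3, and 69.7, 212 and 35.5 CPM at day 7. It had the smallest fold of the 47 tested genes (log2 -0.24 ± 0.52, edgeR adjusted p = 0.79), and day 7 replicate 2 was above every uninjured library.

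Z-disc and cytoskeleton genes fell almost as a block. Of 9 tested, 8 fell and Xirp2 did not pass, with a median log2 fold change of -2.22, where 1.77% of all genes fell. Myot, myotilin, which cross-links actin at the Z-disc, was at 182, 56.2 and 49.2 CPM in uninjured libraries, 18.3 and 45.3 CPM at day 3, and 3.17, 8.96 and 8.86 CPM at day 7. The 3 groups did not overlap, and Myot fell 13.6-fold (log2 -3.77 ± 0.60, edgeR adjusted p = 0.00741). Tcap, telethonin, the cap on titin at the Z-disc, was at 823, 319 and 343 CPM in uninjured libraries, 259.7 and 372 CPM at day 3, and 37.5, 61.4 and 59.9 CPM at day 7. It fell 9.35-fold (log2 -3.22 ± 0.41, edgeR adjusted p = 0.00281), with day 3 still overlapping uninjured.

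Alpha-actinins tie thin filaments into the Z-disc. Actn2, found in all fibres, was at 241, 62.5 and 51.3 CPM in uninjured libraries, 28.0 and 54.7 CPM at day 3, and 9.85, 25.2 and 10.8 CPM at day 7. It fell 7.70-fold (edgeR adjusted p = 0.0192), and Actn3, the fast-fibre form, fell 4.08-fold (adjusted p = 0.00748). Des, the intermediate filament desmin, which smooth muscle also makes, was at 481, 322 and 226 CPM in uninjured libraries, 132 and 316 CPM at day 3, and 65.3, 129 and 95.0 CPM at day 7, a 3.55-fold fall (adjusted p = 0.0218). Xirp2, an actin-binding protein of damaged and loaded muscle, was at 32.3, 32.6 and 13.1 CPM in uninjured libraries, 7.81 and 21.7 CPM at day 3, and 8.26, 25.0 and 7.19 CPM at day 7 (log2 -0.95 ± 0.54, adjusted p = 0.278). The other genes of this group, Smpx, Ldb3 and Myoz1, fell by 2.85, 2.22 and 2.01 on the log2 scale. Without 1 library, the calls of Actn2, Des and Myoz1 were lost in at least 1 fit, those without uninjured replicate 1 and day 7 replicate 1 among them (highest adjusted p = 0.0886).

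All 5 calcium handling genes had a negative log2 fold change at day 7 (-2.47 to -0.68). Of these 2 passed, where 1.77% of all genes fell. Atp2a1, the fast calcium pump that refills the sarcoplasmic reticulum, was at 517, 275 and 323 CPM in uninjured libraries, 129 and 256 CPM at day 3, and 42.1, 76.8 and 82.6 CPM at day 7. It fell 5.53-fold (log2 -2.47 ± 0.37, edgeR adjusted p = 0.006). Pvalb, the calcium buffer parvalbumin of fast fibres, was at 494, 671 and 349.8 CPM in uninjured libraries, 178 and 276 CPM at day 3, and 68.3, 96.7 and 123 CPM at day 7. It fell 5.27-fold (log2 -2.40 ± 0.33, edgeR adjusted p = 0.0041), and in both genes the groups were ordered uninjured, day 3, day 7 without overlap.

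The genes of calcium release and storage did not pass, and no test set them against Atp2a1 and Pvalb. Ryr1, the calcium release channel, was at 24.9, 21.8 and 20.4 CPM in uninjured libraries, 11.1 and 23.8 CPM at day 3, and 11.9, 22.7 and 7.19 CPM at day 7 (log2 -0.68 ± 0.41, edgeR adjusted p = 0.301). Cacna1s, its voltage sensor, was at 12.3, 8.45 and 10.3 CPM in uninjured libraries, 5.76 and 6.95 CPM at day 3, and 2.60, 8.30 and 3.83 CPM at day 7 (adjusted p = 0.151), with no overlap between wounded and uninjured libraries. Casq1, the calcium store protein calsequestrin of fast fibres, was at 103, 21.1 and 38.6 CPM in uninjured libraries, 22.2 and 41.4 CPM at day 3, and 13.6, 22.4 and 24.6 CPM at day 7 (adjusted p = 0.106). Uninjured replicate 1 carried most of its uninjured level. Casq1 was called lower with DESeq2 and in edgeR with no filter.

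All 5 metabolic genes fell at day 7, where 1.77% of all genes did so, with a median log2 fold change of -2.73. Pygm, the muscle glycogen phosphorylase, was at 217, 106 and 103 CPM in uninjured libraries, 48.9 and 99.9 CPM at day 3, and 12.2, 13.4 and 20.1 CPM at day 7. It fell 9.31-fold (log2 -3.22 ± 0.39, edgeR adjusted p = 0.00241). Ckm, the muscle creatine kinase that buffers ATP, was at 604, 380.4 and 268 CPM in uninjured libraries, 163 and 335 CPM at day 3, and 32.2, 70.7 and 74.0 CPM at day 7, and fell 7.08-fold (adjusted p = 0.00621). In both genes day 7 was below all other libraries.

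Mb, the oxygen-binding protein myoglobin, was as low at day 3 as at day 7, although day 3 did not pass (log2 -2.68 ± 0.48, edgeR adjusted p = 0.119). It was at 210.2, 111 and 84.5 CPM in uninjured libraries, 20.8 and 21.5 CPM at day 3, and 10.9, 29.9 and 20.4 CPM at day 7. Day 3 and day 7 overlapped each other and lay far below uninjured, and Mb fell 6.62-fold at day 7 (log2 -2.73 ± 0.41, edgeR adjusted p = 0.00604). Eno3, the muscle enolase, was at 447, 145 and 164 CPM in uninjured libraries, 125 and 204 CPM at day 3, and 34.6, 57.4 and 62.2 CPM at day 7, a 4.90-fold fall (adjusted p = 0.0138). Ampd1, which deaminates AMP in muscle, was at 7.20, 4.04 and 4.33 CPM in uninjured libraries, 5.35 and 4.60 CPM at day 3, and 1.36, 2.05 and 1.08 CPM at day 7, a 3.41-fold fall (adjusted p = 0.0414). The call of Eno3 was lost without day 7 replicate 1 or 2 (highest adjusted p = 0.0631). That of Ampd1 was lost without uninjured replicate 1, 2 or 3, without day 7 replicate 1 or 2, and with these groups fitted alone (highest adjusted p = 0.16).

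The group of protein turnover, chaperone and other genes had the lowest median at day 7, -3.53 on the log2 scale, and all 5 fell. The share of all genes that fell was 1.77%. Apobec2, a muscle-enriched relative of the cytidine deaminases, was at 336, 140.0 and 132 CPM in uninjured libraries, 46.1 and 50.7 CPM at day 3, and 6.11, 17.2 and 15.3 CPM at day 7. The groups were separate and ordered, and Apobec2 fell 15.7-fold (log2 -3.97 ± 0.47, edgeR adjusted p = 0.00208). Hspb7, a small heat shock protein of striated muscle, was at 718, 255 and 189 CPM in uninjured libraries, 68.7 and 141 CPM at day 3, and 15.8, 45.7 and 36.5 CPM at day 7, and fell 11.8-fold (adjusted p = 0.0074). Its relative Hspb6 was at 1245, 272 and 241 CPM in uninjured libraries, 126 and 162 CPM at day 3, and 19.9, 58.0 and 74.1 CPM at day 7. It fell 11.6-fold (adjusted p = 0.0135), with uninjured replicate 1 at 4.85 times the mean of the other uninjured libraries and a call lost without day 7 replicate 1 or 2 (highest adjusted p = 0.0566).

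Trim63 and Fbxo32 encode muscle ubiquitin ligases known for their rise in atrophy. Trim63 was at 63.7, 53.7 and 44.8 CPM in uninjured libraries, 8.02 and 34.4 CPM at day 3, and 4.87, 5.04 and 4.19 CPM at day 7. It fell 11.5-fold (log2 -3.52 ± 0.45, edgeR adjusted p = 0.00292). Fbxo32 was at 43.4, 43.4 and 34.4 CPM in uninjured libraries, 26.1 and 27.7 CPM at day 3, and 15.8, 25.7 and 12.8 CPM at day 7. It fell 2.23-fold (log2 -1.15 ± 0.27, edgeR adjusted p = 0.0309), a call lost without any 1 uninjured library or day 7 replicate 1 (highest adjusted p = 0.103). Both genes were lower in every wounded library than in any uninjured one.

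Fast and slow fibre genes were then set against each other. Over all genes, 1.77% fell and 5.9% rose at day 7. Of 13 fast genes, 11 fell at day 7, and Myh2 and Casq1 did not pass, with a median log2 fold change of -2.40. Of 7 tested slow genes, Tnni1 and Tnnc1 rose, Mybpc1 fell and 4 did not pass, with a median of 0.68. That median is the value of Myl2 (± 1.22, edgeR adjusted p = 0.746), which was at 0 to 1.92 CPM in uninjured and day 7 libraries. The fast genes summed to 7684, 5382 and 3926 CPM in uninjured libraries, 2650.3 and 4097 CPM at day 3, and 757, 1327 and 1262 CPM at day 7. The slow genes summed to 334, 198 and 199.9 CPM in uninjured libraries, 272 and 204 CPM at day 3, and 194, 243 and 191 CPM at day 7. The summed fast level of day 7 lay below every other library, while the summed slow level overlapped between all groups. Most of the slow sum was Mybpc1 and Tpm3 in uninjured libraries, and Tpm3, which is not limited to muscle, at day 7. Mean Mybpc1 went from 127 CPM in uninjured libraries to 19.1 CPM at day 7, and mean Tpm3 from 102 to 152 CPM. The overlap of the sums therefore does not mean that each slow gene kept its level.

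The ratio of the fast to the slow gene of 1 protein was taken within each library, as log2((fast CPM + 0.5)/(slow CPM + 0.5)), for 9 proteins. This ratio does not depend on library scaling except through the 0.5 CPM added. For troponin C it was 6.59, 7.01 and 6.93 in uninjured libraries, 1.16 and 4.06 at day 3, and 0.80, 1.00 and 1.20 at day 7. For troponin I it was 9.30, 9.37 and 7.96 in uninjured libraries, 4.16 and 7.02 at day 3, and 3.83, 3.46 and 3.94 at day 7. For troponin T it was 7.73, 7.37 and 7.13 in uninjured libraries, 4.04 and 6.23 at day 3, and 4.16, 4.11 and 3.95 at day 7. In each troponin subunit the ratio stayed above 0 in every library and was lower in every wounded library than in any uninjured one.

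At day 7 minus uninjured, the ratio differed by -5.85 for troponin C, -5.14 for troponin I and -3.34 for troponin T. It differed by -2.31 for the regulatory light chain, -2.22 for the calcium pump, -1.87 for the heavy chain (Myh4 over Myh7) and -1.27 for calsequestrin. In these 7 of 9 pairs every day 7 library was below every uninjured one, and each had a two-sided exact permutation p of 0.1, the smallest that 3 against 3 libraries can give (0.129 adjusted over the 9 pairs). No pair can therefore reach 0.05 in this design. With 0.1 CPM added in place of 0.5 the regulatory light chain groups overlapped (-2.43, exact permutation p = 0.3). The size of the difference for genes near 0 moved with the added constant, to -7.02 with 0.1 CPM and -4.51 with 2 CPM for troponin C, and to -2.83 and -1.48 for the heavy chain. The essential light chain (-0.55, exact permutation p = 0.5) and myosin-binding protein C (-0.66, exact permutation p = 0.2) overlapped between groups. The slow calcium pump gene Atp2a2, which many cells use, was at 111, 78.5 and 116 CPM in uninjured libraries, 67.4 and 60.6 CPM at day 3, and 82.3, 78.9 and 93.2 CPM at day 7 (log2 -0.26, edgeR adjusted p = 0.442 at day 7).

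**Figure D3:**
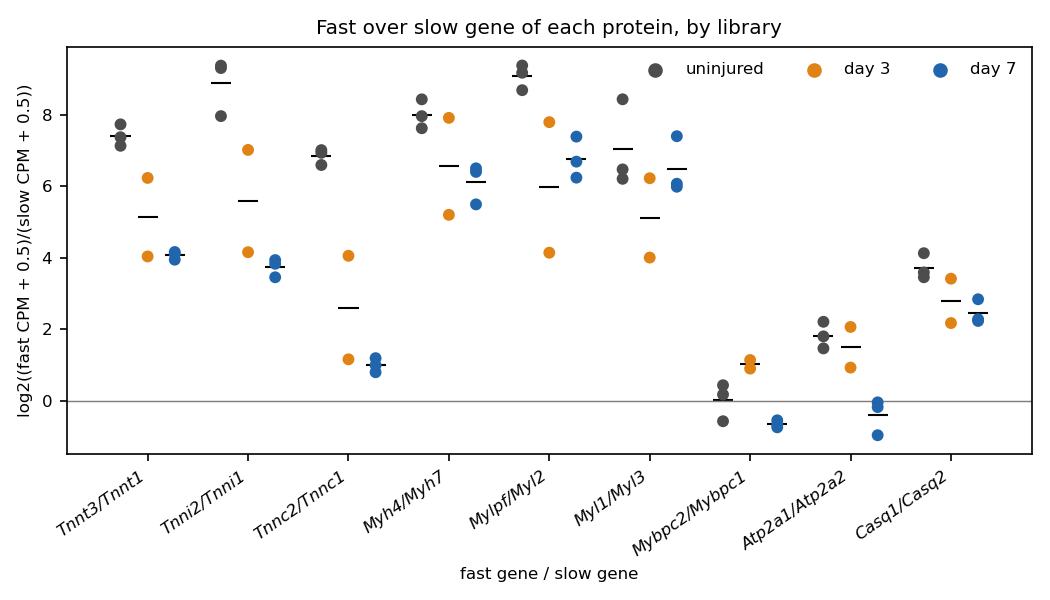
Log2 ratio of the fast to the slow gene for 9 muscle proteins, with 1 point per library and a bar at each group mean, for uninjured, day 3 and day 7. Troponin ratios are high in uninjured libraries (6.59 to 9.37) and low at day 7 (0.80 to 4.16), and the day 3 libraries are split.

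At day 3 minus uninjured, 8 of the 9 ratios had a negative difference and 5 had both day 3 libraries below every uninjured one. The difference was -4.24 for troponin C, -3.29 for troponin I, -3.11 for the regulatory light chain, -2.28 for troponin T and -0.93 for calsequestrin. Each had an exact permutation p of 0.2, which is the smallest that 2 against 3 libraries allow (0.3 adjusted over the pairs). With 0.1 and 2 CPM added, the difference was -5.39 and -2.97 for troponin C and -4.06 and -2.17 for the regulatory light chain. For the heavy chain, which overlapped (-1.45, exact permutation p = 0.4), it was -3.08 and -0.36. Calsequestrin overlapped with 2 CPM added (-0.74, exact permutation p = 0.4). Day 3 replicate 1, the library high in luminal epithelium markers, had the lower ratio of the day 3 libraries in all 9 proteins. Without it the troponin differences were -2.79 for C, -1.86 for I and -1.18 for T, and without replicate 2 they were -5.68, -4.72 and -3.37. The calcium pump difference (-0.33) was 0.24 without day 3 replicate 1. For myosin-binding protein C the difference was 1.01 (exact permutation p = 0.2), with Mybpc2 at 45.4 and 109 CPM and Mybpc1 at 24.1 and 49.0 CPM at day 3.

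For single genes at day 3 against uninjured, edgeR called 0 of the 47 muscle genes, where 0.0107% of all genes passed in either direction. At an unadjusted p under 0.05 there were 25 of the 47, against 2418 of 18656 genes. Another tool, DESeq2, called 7 lower and 3 higher, and edgeR with no filter on low counts 16 lower and 5 higher. Without day 3 replicate 2, edgeR called 1 lower and 3 higher. The median log2 fold change was -0.76 over the muscle genes and 0.02 over all genes. Both day 3 libraries were below every uninjured library for 21 of the 47 and above for 6, where 17.2% and 16.9% of all genes did so. The 6 above were all slow-fibre genes, with medians of 1.76 over the slow and -0.75 over the fast list. Of all 8 slow genes, 7 had both day 3 libraries above every uninjured one, and 6 were higher in day 3 replicate 1 than in replicate 2.

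Day 3 levels covered a wide range between genes. As a share of the uninjured mean, Mb was at 15.6% on day 3 and 15.1% on day 7, and Myh1 was at 25.3% and 17.4%. Apobec2 was at 23.8% and 6.35%, Hspb6 at 24.6% and 8.65%, and Hspb7 at 27.1% and 8.44%. Mybpc2 was at 64.8% on day 3 and 10.2% on day 7, and Tcap at 63.8% and 10.7%. Higher day 3 shares were seen in Myh4 (152%, and 38.7% on day 7) and Tpm3 (116% and 150%). The slow troponins Tnnt1, Tnni1 and Tnnc1 were at 344%, 957% and 3179% on day 3, from low uninjured levels. Of the 40 genes at 20 CPM or more in uninjured skin, 20 had both day 3 libraries below every uninjured one, and 15 lay between day 7 and uninjured with no overlap on either side. The 40 were chosen by their uninjured level, which favours a fall and leaves out the slow troponins, Myh7, Myl2 and Myl3. No share over all genes was taken under that choice. These are descriptions, since edgeR called no muscle gene at day 3.

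**Figure D4:**
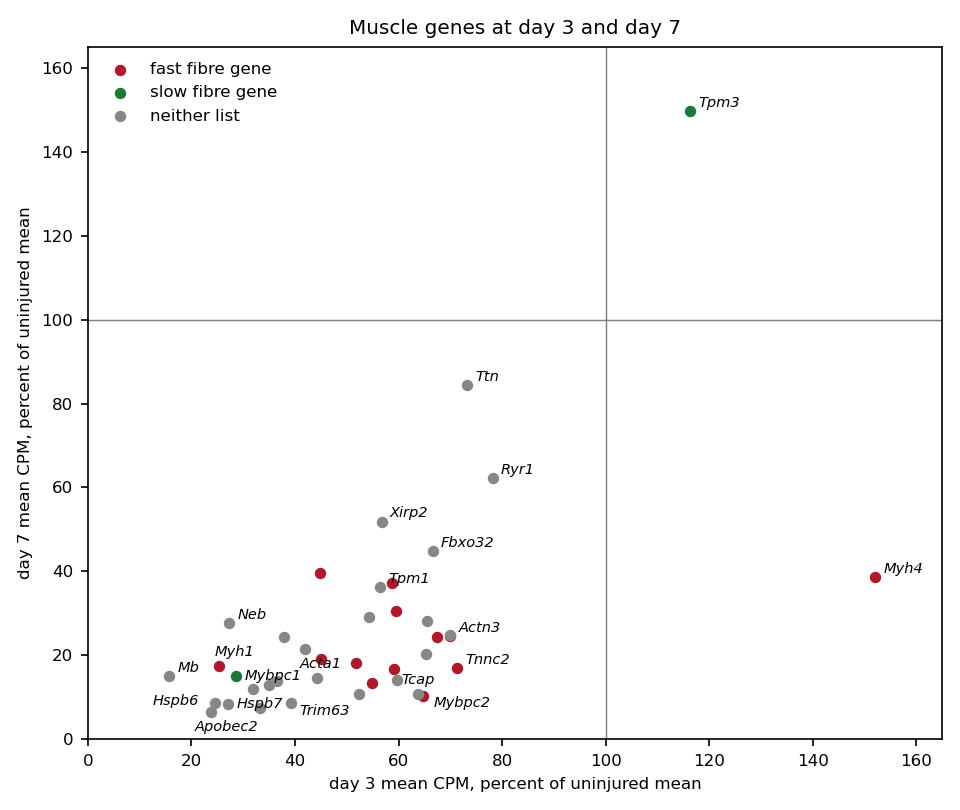
Mean CPM at day 3 (x axis) and at day 7 (y axis), each in percent of the uninjured mean, for the 40 muscle genes at 20 CPM or more in uninjured libraries. This choice leaves out the slow troponins, Myh7, Myl2 and Myl3. Most points lie below 80% on x and below 40% on y, Myh4 lies at 152% on x, Mb at 15.6% on x, and Tpm3 is above 100% on both axes.

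At day 7 against day 3, 1 of the 47 genes passed, Mybpc2, where 0.0214% of all genes fell, 0.0643% rose and 0.0858% passed in either direction. Mybpc2 fell to 8.15, 16.3 and 11.9 CPM at day 7, against 45.4 and 109 CPM at day 3 (log2 -2.67 ± 0.38, edgeR adjusted p = 0.0355). Leaving out day 3 replicate 2 or any 1 day 7 library ended this call, as did fitting day 7 and day 3 alone (highest adjusted p = 0.102). Next in line were Myh4 (log2 -1.98 ± 0.32, adjusted p = 0.0533) and Tcap (log2 -2.58 ± 0.42, adjusted p = 0.0557). The median over the 47 genes was -1.41, against 0.08 over all genes. In the edgeR test 30 of the 47 had an unadjusted p under 0.05, against 2054 of 18656 genes. Every day 7 library was below both day 3 libraries for 30 of the 47 and above both for 1, where 11.4% and 14.2% of all genes did so. The number of calls depended on the method: 18 genes were lower with DESeq2 and 26 with no filter in edgeR.

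Other muscle genes, from 5 lists drawn up beside the 48, also fell at day 7 wherever they passed the test. The share of all genes tested that fell at day 7 was 1.77%. Of 21 further sarcomere genes, 10 fell (median log2 -1.71). The light chain kinase Mylk2 and the thin filament nucleator Lmod2 fell by 3.13 and 2.39 on the log2 scale. The actin anchor Nrap and the LIM protein Fhl1 fell by 2.73 and 2.67. Of 17 tested calcium and excitation genes, 8 fell (median -1.48). Sln, sarcolipin, a brake on the calcium pump, fell to 101, 114 and 95.2 CPM at day 7, against 278, 368 and 295 CPM in uninjured libraries (log2 -1.60 ± 0.22, edgeR adjusted p = 0.00402). The calcium channel subunits Cacng1 and Cacnb1 fell by 2.46 and 2.01, and Jsrp1, a protein of the triad, by 2.08.

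In the membrane complex that links the fibre to its matrix, the sarcoglycans Sgca and Sgcb fell by 2.64 and 1.08 on the log2 scale. Cav3, the muscle caveolin, fell by 2.29, and Dtna, a dystrobrevin, by 2.20. Of 14 further metabolic genes, 5 fell (median -1.37), where 1.77% of all genes fell. Cox6a2 and Cox7a1, respiratory chain isoforms, fell by 2.89 and 2.09, and the fatty acid carrier Fabp3 by 2.89. Pgam2 and Pfkm of glycolysis fell by 2.32 and 1.80. Several genes of this list are also used by adipocytes, and its summed level was 1937 to 3766 CPM at day 7, against 4316 to 5684 CPM in uninjured libraries.

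Genes of muscle development and repair, of the kind used by satellite cells and newly forming fibres, had a median of 0.59 over 11 tested. Of all genes 7.67% passed, and of these 11 genes 1 did so. It was Myf6, a myogenic factor of mature fibres, which fell to 4.64, 6.63 and 5.51 CPM at day 7, against 51.5, 39.4 and 29.0 CPM in uninjured libraries (log2 -2.83 ± 0.40, edgeR adjusted p = 0.00473). Myh3, the embryonic myosin, was at 3.62, 3.36 and 2.87 CPM at day 7 and 1.10, 1.16 and 1.16 CPM in uninjured libraries (adjusted p = 0.0779). Mymk, which drives fusion of myoblasts, was at 2.83, 2.89 and 2.64 CPM at day 7 and 0.732, 1.10 and 0.289 CPM in uninjured libraries (adjusted p = 0.0852). Both were above uninjured in every day 7 library and neither passed. Myog, which switches on differentiation, was at 11.2, 13.8 and 6.83 CPM at day 7 and 30.9, 16.9 and 11.1 CPM in uninjured libraries (adjusted p = 0.223), and Pax7, the satellite cell factor, was not tested because of low counts.

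Markers of some other cells also differed between groups. The 5 luminal epithelium markers all rose at day 7, where 5.9% of all genes rose, with the summed levels given above. Of 8 smooth muscle and pericyte markers 7 rose, with sums of 131 to 464 CPM at day 7, 110 and 223 CPM at day 3 and 34.7 to 66.8 CPM in uninjured libraries. Of 8 endothelial markers 5 rose (120.3 to 452 CPM at day 7, 223 and 241 CPM at day 3, 75.4 to 161 CPM in uninjured libraries), and of 8 macrophage markers 3 rose (403 to 888 CPM at day 7, 214 and 759 CPM at day 3, 97.8 to 216 CPM in uninjured libraries). Of 5 keratinocyte markers and of 4 tested brown or beige adipocyte markers, 0 passed at day 7. None of these lists had a marker at 0 in all libraries. The part of these cells in the levels of the slow-fibre genes, or in the share left to muscle, was not tested.

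The 10 adipocyte markers had a median log2 fold change of -0.59 at day 7, and 0 of them passed (smallest edgeR adjusted p = 0.0675). In the same edgeR test 3 of the 10 had an unadjusted p under 0.05, against 4987 of 18656 genes. Day 7 replicate 3, with the highest adipocyte sum of the 8 libraries (140630 CPM), had a muscle median of -2.35 on the log2 scale relative to uninjured. That lies between those of day 7 replicates 1 and 2, and the fast-gene sum was 1262 CPM. Heart markers were near 0 in all libraries apart from Myl4, which was at 22.9 to 27.3 CPM at day 7 and 24.5 to 37.3 CPM in uninjured libraries, and Tnni3, the heart troponin I, at 1.44 to 10.3 CPM at day 7 and 0 to 1.29 CPM in uninjured libraries. Nppb, a heart hormone, had no count in any library.

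**Figure D5:**
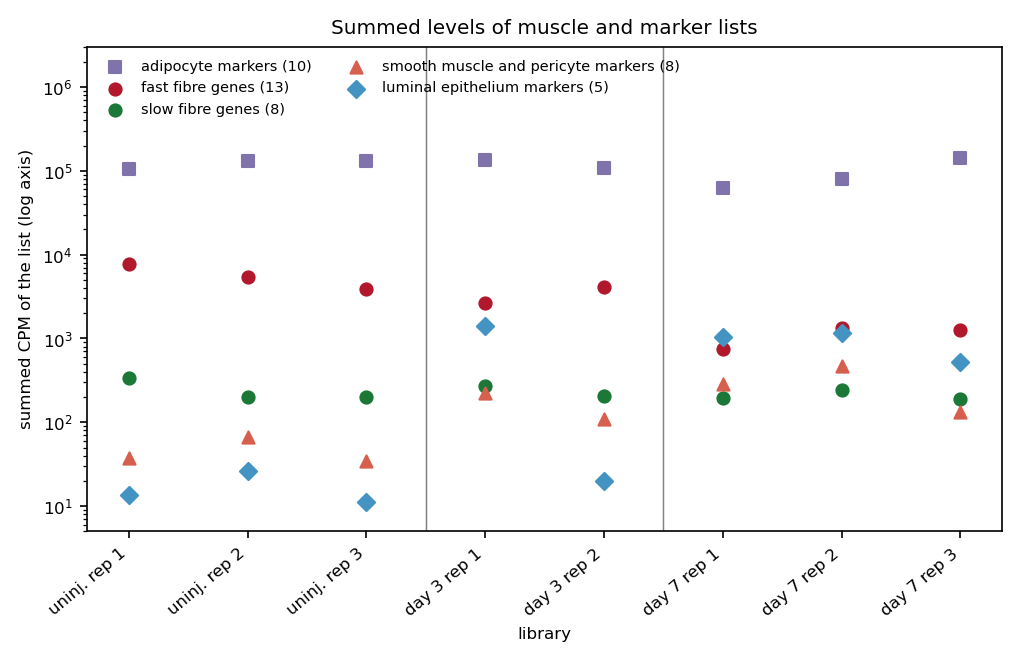
Summed CPM (log axis) of the fast and slow muscle genes and of 3 marker lists in each library. The fast-gene sum is lowest at day 7 (757 to 1327 CPM), and the slow-gene sum lies between 191 and 334 CPM. Luminal epithelium markers are high in day 3 replicate 1 and all day 7 libraries.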

How the data were processed

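The deposited values were raw read counts per gene in 8 libraries, which per the file headers the authors obtained by running featureCounts 2.0.8. The submitters' processing notes name STAR 2.7.10b and mm10. Another name for mm10 is GRCm38, and 1 of the 48 genes had the same start in a GRCm38 annotation. The coordinates of the table are thus in conflict with the named build. How strand and multiply matching reads were handled is not given in the sources, which leaves the split between close relatives such as Myh1, Myh2 and Myh4 uncertain. The table's gene length, another deposited column, is summed exon length in bases and served for CPM per kilobase. Of 53700 identifiers, 52093 matched a symbol.

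Counts were TMM-normalised and tested in R 4.3.3 with edgeR 4.0.16 (minimum count of 10, quasi-likelihood F test, two-sided, 1 mean per group over all 8 libraries, 5 residual degrees of freedom, Benjamini-Hochberg over 18656 genes, threshold 0.05). SE is the log2 fold change divided by the square root of F. Fast over slow ratios were compared by exact permutation. The procedure was tested on simulated data. No library was a duplicate of another: chi-square per degree of freedom within groups was 23.2 to 61.1.

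Alternatives were DESeq2 1.42.0, its size factors in edgeR, upper-quartile scaling, scaling without muscle genes, no filter, only the groups compared, a replicate block, other pseudocounts, and each replicate left out. The genes and lists were chosen with earlier results of these data known. Values in every library are given for genes of the pairs, except Casq2, the slow gene for calsequestrin. By role, they are given for the genes with the 3 largest and 2 smallest folds at day 7. Myh1 and Myh2 were added after their values were seen. Of the other lists, the 4 smallest adjusted p at day 7 are named, or any gene where at most 5 passed. A gene of the membrane list, and that list's count, are not reported here.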

Additional observations from a re-analysis of the deposited data

Results flagged for a closer look

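Mybpc2, the fast gene for myosin-binding protein C, differed between day 7 and day 3 in the edgeR fit, with a log2 fold change of -2.67 (adjusted p = 0.0355). In this fit it was the one gene of the 47 tested whose response to wounding, relative to uninjured skin, differed between these days. This was a test of the difference itself. Leaving out any 1 day 7 library ended the call. DESeq2 called 18 muscle genes lower in this comparison, and edgeR with no filter called 26. Mybpc2 was at 8.15, 16.3 and 11.9 CPM at day 7 and at 45.4 and 109 CPM at day 3.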

How the results depend on the processing

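At day 7 against uninjured, the muscle genes called lower (34) numbered 33 to 38 under the 7 settings that keep all libraries of both groups, and 22 to 34 with 1 library left out, the lowest without day 7 replicate 1. Those called higher (2) numbered 0 to 3 with 1 library left out. Of 36 calls, 21 were kept in every alternative and 15 were lost in at least 1. Over all genes 330 were lower and 1101 higher. These counts were 794 and 2362 with no filter, 644 and 1857 with DESeq2, and 76 to 1439 and 238 to 2616 with 1 library left out, lowest without uninjured replicate 1 and highest without day 7 replicate 3. At day 3 against uninjured, muscle genes lower and higher (0 and 0) were 16 and 5 with no filter, 7 and 3 with DESeq2, and 0 to 1 and 0 to 3 with 1 library left out. All genes (0 lower and 2 higher) were 230 and 696 with no filter, 100 and 329 with DESeq2, 0 higher with these groups fitted alone, and 0 to 21 and 0 to 129 with 1 library left out, highest without day 3 replicate 2. At day 7 against day 3, muscle genes lower (1) were 26 with no filter, 18 with DESeq2, 3 with DESeq2 size factors, 3 with upper-quartile scaling, and 0 to 4 with 1 library left out. All genes (4 lower, 12 higher) were 203 and 369 with no filter, 86 and 149 with DESeq2, 8 lower with DESeq2 size factors, 11 with upper-quartile scaling, 1 with these groups fitted alone, and 0 to 12 and 4 to 23 with 1 library left out.

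Same-numbered libraries correlated in their deviations from group means at -0.0741 to 0.203, and different-numbered ones at -0.225 to 0.207. In groups of 2 or 3 libraries these deviations constrain each other, so the check cannot decide whether replicate numbers pair the samples. A replicate block gave 568 genes lower and 1563 higher at day 7 against uninjured, where the main fit gave 330 and 1101. At day 3 the block gave 1 muscle gene lower, and 2 lower and 5 higher over all genes. For day 7 against day 3 it gave 3 muscle genes lower, and 31 lower and 95 higher over all genes, and the log2 fold change of Xirp2 was 0.20 and that of Mb 0.11.

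With 1 library left out, log2 fold changes of genes that had not passed changed sign as follows. For day 7 against uninjured, Myl2 ranged from -0.10 to 1.40 and Ttn from -1.23 to 0.17. At day 3 against uninjured, Mylpf ranged from -0.86 to 0.040, Myoz1 from -0.84 to 0.010, Ryr1 from -1.03 to 0.089, Casq1 from -1.30 to 0.12, Eno3 from -1.03 to 0.11 and Ampd1 from -0.22 to 0.26. Between day 7 and day 3, the slow troponin genes were positive without day 3 replicate 1, with ranges of -1.48 to 0.060 for Tnnt1, -1.35 to 1.12 for Tnni1 and -1.51 to 0.74 for Tnnc1. In the same comparison the ranges were -1.04 to 1.02 for Neb, -1.41 to 0.17 for Myh2, -0.79 to 0.75 for Ttn, -0.94 to 0.80 for Xirp2, -0.87 to 0.34 for Ryr1 and -0.43 to 0.22 for Mb. With all libraries, Ampd1 at day 3 was 0.064 with upper-quartile scaling. Neb at day 7 against day 3 was -0.030 with DESeq2 size factors, -0.090 with upper-quartile scaling, -0.028 with no filter, -0.017 with DESeq2 and -0.033 with these groups fitted alone. Of the fast over slow ratios, the essential light chain difference at day 7 lay between -1.01 and 0.15 and the calcium pump difference at day 3 between -0.90 and 0.24. The causes were not tested.

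Upper-quartile scaling put the all-gene median at day 3 at 0.13, against 0.02 with TMM. Depth limits what can be said of genes near 0: 3 counts correspond to 0.184 to 0.617 CPM in these libraries. The uninjured values of Myh7 (0, 0 and 0.144 CPM) lie under that floor, as do those of Myl2 and Tnnc1 in uninjured replicate 3 (0 CPM). So do Myh7 in day 7 replicates 1 and 2 (0.226 and 0.187 CPM) and Myl2 in day 7 replicate 1 (0 CPM). The heavy chain ratio at day 7 therefore rests largely on Myh4 and on the added constant.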

Other observations

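Day 7 values were also read by exon length. The 5 genes with over 10 kb of exon, Neb, Ttn, Myom1, Xirp2 and Ryr1, had a median log2 fold change of -0.95 at day 7 against uninjured, and 1 of them, Myom1, fell. The 42 genes of up to 10 kb had a median of -2.35, with 33 that fell and 2 that rose. Among all genes tested, whatever their length, 1.77% fell and 5.9% rose. Across the 47 tested genes, Spearman's rho between exon length and the day 7 log2 fold change was 0.298. This is a description across genes, which share the same libraries and are not independent replicates. Neb, Ttn, Xirp2 and Ryr1 were each highest in day 7 replicate 2 among the day 7 libraries, at 93.2, 212, 25.0 and 22.7 CPM. In day 7 replicates 1 and 3 Ttn was at 69.7 and 35.5 CPM. Myom1 was highest in day 7 replicate 1 instead. A highest level in day 7 replicate 2 was not limited to long genes. It was seen in 27 of the 40 genes at 20 CPM or more in uninjured skin.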
